A study of Ambystoma mexicanum with 198 samples.

Results

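Gene expression in the tip of the regenerating axolotl forelimb was compared between 24 and 28 days post-amputation (DPA), using all 10 arrays of 24 DPA and all 9 of 28 DPA among the 198 arrays of the series and every one of the 20,035 probes that is not a manufacturer control. The animals were *Ambystoma mexicanum* amputated through the mid zeugopod, the forearm, and each array held RNA of 1 tissue sample, the distal-most 1 mm of a limb. Both groups received the same treatment and differed by design in the time since amputation. The study staged limbs by shape, with late bud limbs seen up to 24 DPA and palette limbs from 24 to 28 DPA. Of the 9 limbs at 28 DPA, 2 had reached digital outgrowth. Which arrays these were is not given in the sources used here. The animals were 6 to 10 months old at surgery, varied in body size and came from different spawns. How age, size and spawn were spread over the 2 groups is not given in the sources used here. Those sources name no transgene, mutant or drug other than the anesthetic benzocaine. Within both groups the labels carry one letter code for replicates 1 to 5 and another for replicates 6 to 10, with no replicate 10 at 28 DPA, and the meaning of the codes is not given in the sources used here. The sources do not say whether any limbs came from one animal, so the p-values refer to the spread between these tissue samples alone. Values are log2 intensities on the custom Amby002 GeneChip. A probe was called changed when limma gave an adjusted p below 0.05 and the groups differed by at least 1.5-fold (0.58 on the log2 scale).

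At these ages of regrowth the limb bud, in which cartilage and muscle progenitors condense, flattens into a palette, where differentiation begins and digit primordia form. The blastema beneath the wound epidermis is a population of dividing mesenchymal cells. As background, fibroblast growth factor signaling during outgrowth involves both the blastema and the basal layer of the wound epidermis. Blastema cells leave the division cycle as cartilage forms, and new muscle appears later and more proximally. The comparison was first labelled the onset of differentiation. The study describes its samples as mixtures that included epidermis, blastema, connective tissue, fat, nerve, vessels, muscle, cartilage and bone. It adds that the way of collecting tissue makes the share of cell types vary between samples. Fewer cells of a type and less RNA per cell therefore cannot be told apart in these values.

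Few probes passed the test from 24 to 28 DPA, and most of those that did fell. Of the 20,035 probes 113 were called (0.564%), of which 32 rose (0.16%) and 81 fell (0.404%). The calls with a gene symbol covered 17 genes that rose and 46 genes that fell, and 41 called probes had no symbol on the platform. With each array centred on its median, 41 probes rose and 63 fell, so that rises made up 39.4% of the calls instead of 28.3%. Genes of DNA synthesis and nucleotide supply, chaperones of the endoplasmic reticulum and *hmgxb4* were among those that fell. A collagen VI chain, a lymphatic growth factor and a glucocorticoid-induced regulator were among those that rose. No gene of the cartilage, bone, muscle or limb patterning lists was called when each gene was read from its brightest probe. The label onset of differentiation was thus not borne out by calls in these genes, though some intervals allow rises of over 1.5-fold. The span is called 24 to 28 DPA here. The array medians, 5.74 to 5.82 at 24 DPA and 5.72 to 5.78 at 28 DPA, were close, and arrays correlated across probes at r = 0.976 to 0.992.

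**Figure D1:**
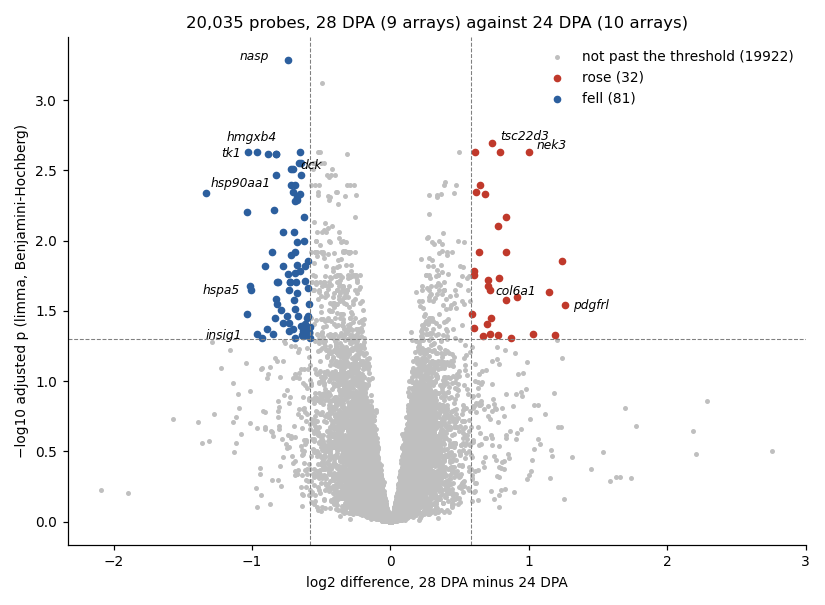
Each point is 1 of 20,035 probes, with the log2 difference of 28 DPA minus 24 DPA on the horizontal axis and −log10 of limma's adjusted p on the vertical axis; dashed lines mark the thresholds. The 81 probes that fell (blue) outnumber the 32 that rose (red), and the probes with the largest differences on either side lie below the horizontal line.

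The DNA replication genes stood lower at 28 DPA, with the lowest median difference of the 37 gene lists. Thymidine kinase, encoded by *tk1*, salvages thymidine for DNA synthesis. Its log2 intensity ran from 7.26 (lowest) through 7.64 (median) to 8.13 (highest) over the 24 DPA arrays and from 5.88 through 6.54 to 7.23 over the 28 DPA arrays. All 9 arrays of 28 DPA thus lay below all 10 of 24 DPA, and *tk1* fell by 1.03 (SE 0.15, limma adjusted p = 0.0023). The deoxycytidine kinase gene *dck*, which supplies deoxynucleotides by salvage, ran from 9.68 through 9.84 to 10.27 and from 8.57 through 9.20 to 9.66, again without overlap. It fell by 0.70 (SE 0.12, limma adjusted p = 0.0045), and a dimmer *dck* probe also fell, by 0.71, with 8 of 9 arrays of 28 DPA below all of 24 DPA. The nucleotide pyrophosphatase gene *dctpp1*, which clears modified deoxynucleotides, fell by 0.83 (limma adjusted p = 0.0024), from 8.73 ± 0.25 to 7.91 ± 0.32 (SD, n = 10 and 9).

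These were the only 3 of the 56 measured genes of the DNA replication list that were called, each gene read from its brightest probe, and 0 rose. The supplementary probe list of the study gives *tk1*, *dck* and *dctpp1* as changed from 22 to 24 DPA. It does so too for *hyou1*, *dnajb9*, *hsp90aa1*, *insig1*, *tsc22d3* and *riok3*, named below. That comparison shares the 24 DPA arrays, and the gene lists were written with earlier results known, so the counts are a description. Smaller differences ran the same way through much of the DNA replication list. Its median difference was −0.31, against 0.01 over all probes, and 49 of the 56 genes were lower at 28 DPA. Without a fold threshold, 24 of the 56 (42.9%) were lower at an adjusted p below 0.05 and 0 were higher, where 168 of all 8,639 named genes (1.94%) were lower. Over all probes 342 (1.71%) were lower and 163 (0.814%) higher at that adjusted p. The list mean ran from 8.88 to 9.16 over the 24 DPA arrays and from 8.49 to 8.91 over the 28 DPA arrays, with 7 of the 9 arrays of 28 DPA below every array of 24 DPA. Replicates 1 to 5 gave a median of −0.34 and replicates 6 to 10 one of −0.28.

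Among the genes close under the fold threshold were the subunits of the replicative helicase. The gene *mcm3* went from 10.88 ± 0.17 to 10.30 ± 0.26, *mcm6* from 10.90 ± 0.12 to 10.42 ± 0.29, *mcm4* from 10.08 ± 0.19 to 9.62 ± 0.11 and *mcm2* from 10.97 ± 0.22 to 10.52 ± 0.09 (SD, n = 10 and 9). Adjusted p from limma was between 0.0034 and 0.013 for these 4 genes. The flap endonuclease gene *fen1*, which processes Okazaki fragments, differed by −0.52 (limma adjusted p = 0.0023), the histone mRNA-binding gene *slbp* by −0.51 (0.0023), and *uhrf1*, which couples DNA methylation to replication, by −0.56 (0.0031). Other members were level. The primase subunit gene *prim2* stood at 8.74 ± 0.13 and 8.74 ± 0.21, and the clamp loader gene *rfc5* was 0.11 higher (95% interval −0.03 to 0.24).

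The sliding clamp gene *pcna* has 2 probes, which differed in size of change. The dimmer probe fell by 0.60 (limma adjusted p = 0.034), and the brighter went from 12.63 ± 0.14 to 12.28 ± 0.20, a difference of −0.35 that passed the adjusted p (0.021) but not the fold threshold. The gene *nasp*, a histone chaperone that supplies new histones, had 2 called probes. The brighter of these ran from 8.93 through 9.37 to 9.50 at 24 DPA and from 8.16 through 8.57 to 8.74 at 28 DPA, and its fall of 0.74 had the smallest adjusted p on the array (limma, 5.20e-04). Of the 41 called probes with no platform symbol, 10 are named in the supplementary probe list of the study, 4 of them as DNA synthesis genes. That list holds only probes that changed in the study's own comparisons of adjacent times. Besides *ldlr*, given below, it names *adfp*, which rose by 0.84. It also names *hk2*, *ppan-p2ry11*, *var5* and *loc100145494*, which fell by 0.59, 0.78, 0.68 and 1.01. The probe named *kiaa0101*, a PCNA-associated factor, fell by 0.83 (limma adjusted p = 0.0024), and 2 of the 3 probes named *rrm2*, a subunit of the enzyme that makes deoxynucleotides, fell, by 0.66 and 0.62. The third *rrm2* probe differed by −0.34 (adjusted p = 0.123). The dim probe named *orc6l*, a subunit of the origin recognition complex, fell by 0.60 (limma adjusted p = 0.022). All 9 arrays of 28 DPA were below all arrays of 24 DPA for the *kiaa0101* probe and for the dimmer called *rrm2* probe, and 8 were for the brighter called one.

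**Figure D2:**
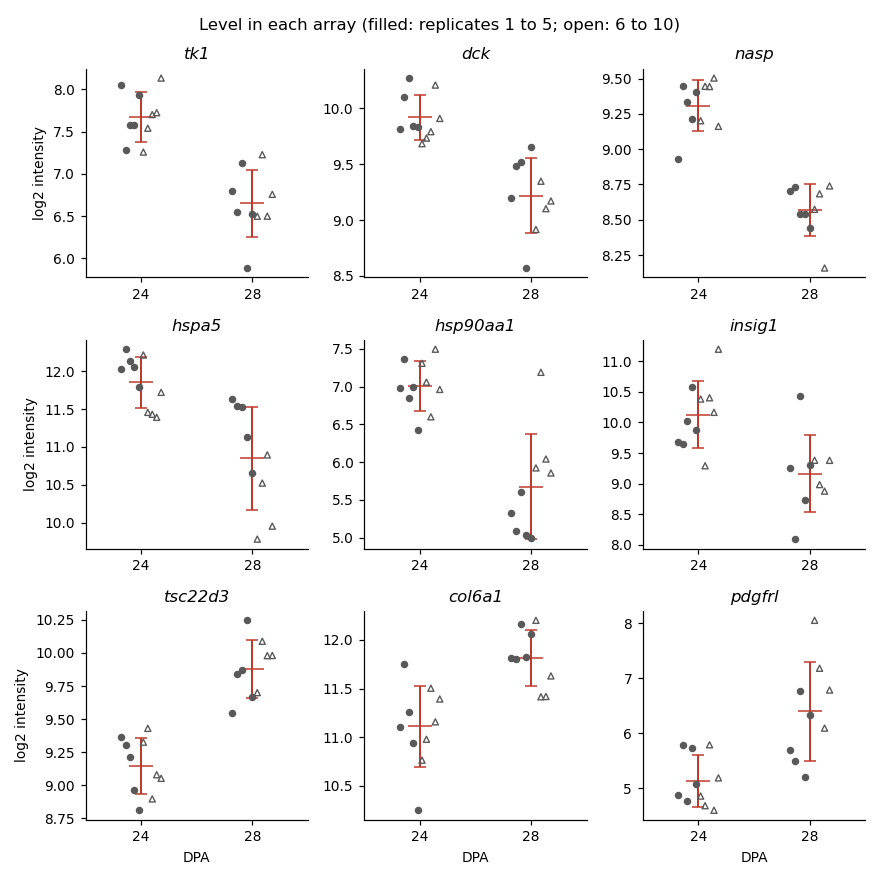
Log2 intensity of 9 genes in every array of 24 and 28 DPA, with filled points for replicates 1 to 5, open triangles for replicates 6 to 10 and red bars for mean ± SD (n = 10 and 9). The groups do not overlap for *tk1*, *dck*, *nasp* and *tsc22d3*, and for *hspa5* the 2 lowest arrays of 28 DPA are at 9.78 and 9.95.

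Genes of mitosis shifted less than those of replication. Of 72 measured genes 1 fell, 0 rose and 71 were not past the threshold, with a median difference of −0.14 and 57 genes lower at 28 DPA. The called gene was *cdca2*, a targeting subunit of a phosphatase on mitotic chromosomes, which fell by 0.63 from 5.13 ± 0.45 to 4.49 ± 0.30 (limma adjusted p = 0.048) and kept its call in only 4 of the 19 fits that each left out 1 array. Without the fold threshold 7 of the 72 genes (9.72%) were lower, among them *ccna2*, the S and G2 phase cyclin, at −0.45 (limma adjusted p = 0.022), and *mad2l1* of the spindle checkpoint at −0.43 (0.018). The proliferation marker *mki67* did not move with them. It stood at 10.97 ± 0.12 and 10.96 ± 0.08, a difference of −0.01 (95% interval −0.12 to 0.11).

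Of the 7 condensin genes in the list 0 were called in their brightest probe, and for *smc2* and *smc4* a dimmer probe was. The other condensin genes *ncapd2*, *ncapd3*, *ncapg*, *ncapg2* and *ncaph* differed by −0.15, −0.12, −0.06, −0.13 and −0.18. The called probe of *smc2* ran from 7.49 through 8.29 to 8.50 at 24 DPA and from 6.70 through 7.44 to 8.00 at 28 DPA, a fall of 0.81 (limma adjusted p = 0.0197), and its brighter probe differed by −0.21 (adjusted p = 0.122). Its partner *smc4* fell by 0.82 in 1 of its 4 probes (limma adjusted p = 0.026), while its brightest probe differed by −0.05 (95% interval −0.16 to 0.07). Outside the list the centriole gene *cep152* fell by 0.69, and the dimmer of 2 probes of *sass6*, also of centrioles, fell by 0.75 while the brighter differed by −0.09. The groups overlapped for the called probes of these 4 genes.

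Probes of the same gene often disagreed among the genes that fell. Of the 46 genes, 26 had more than 1 probe on the array. For 9 of these the brightest probe was called and for 17 it was not. The cadherin gene *cdh1*, which joins epithelial cells, shows the pattern. Its brightest probe was level at 12.35 ± 0.11 and 12.34 ± 0.12, and 2 dim probes of its 7 fell, by 0.93 and 0.72 from means of 7.02 and 4.06. The zinc finger gene *znf318* had 3 called probes of 8, with falls from 0.69 to 1.04, and a brightest probe that differed by 0.01. Likewise *baz1b*, a chromatin remodeler, had 2 called probes with falls of 0.83 and 0.68 and a brightest probe at −0.14. For 6 of the 8 risen genes with several probes the brightest was called. What separates the probes of a gene was not tested, and a fall in a dim probe is not a fall in every transcript of that gene.

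A few chaperone genes fell, each gene read from its brightest probe. These were 3 of 40 measured genes of folding and stress in the endoplasmic reticulum and 1 of 19 heat shock genes. By the same reading, 29 of all 8,639 named genes fell. The gene *hspa5* encodes BiP, the main chaperone of the reticulum. It ran from 11.39 through 11.92 to 12.29 at 24 DPA and from 9.78 through 10.90 to 11.64 at 28 DPA, and fell by 1.01 (SE 0.23, limma adjusted p = 0.022). Of the 9 arrays of 28 DPA, 6 lay below all those of 24 DPA. Its partner *hyou1* fell by 0.85 (limma adjusted p = 0.046) and the co-chaperone *dnajb9* by 0.70 (0.027). Of the reticulum list 0 genes rose and 25 of 40 were lower at 28 DPA, with a median of −0.06. Replicates 1 to 5 gave a median of 0.01 and replicates 6 to 10 one of −0.19. Without the fold threshold 5 were lower and 1 higher. The secreted factor gene *manf* stood at −0.51 (adjusted p = 0.02), *creld2* at −0.48 (0.054) and *sdf2l1* at −0.46 (0.13). Others were level or higher. The translocation subunit gene *sec61a1* differed by −0.04, *pdia4*, a disulfide isomerase, by −0.01, and *xbp1*, a transcription factor of the unfolded protein response, stood 0.44 higher at 28 DPA with an adjusted p of 0.029 and below the fold threshold.

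In the cytosol the heat shock protein gene *hsp90aa1* showed the largest fall of any called probe. It ran from 6.42 through 6.99 to 7.49 at 24 DPA and from 5.00 through 5.60 to 7.19 at 28 DPA. Replicate 7 of 28 DPA, at 7.19, was the only array of that group within the range of 24 DPA, and the fall was 1.33 (SE 0.23, limma adjusted p = 0.0046). It was the 1 called gene among 19 of the heat shock list, where the related *hsp90ab1* differed by −0.30 (95% interval −0.66 to 0.07, adjusted p = 0.435) and the mitochondrial chaperone *hspd1* by −0.34 (0.036).

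In the sterol synthesis list 1 gene was called, and it fell. The gene *insig1* encodes the sterol sensor that retains the activator of cholesterol synthesis in the reticulum. It ran from 9.29 through 10.10 to 11.20 and from 8.10 through 9.25 to 10.44, with 5 of 9 arrays of 28 DPA below all of 24 DPA. It fell by 0.96 (SE 0.25, limma adjusted p = 0.046) but was called in only 3 of the 19 fits that left out an array. A probe that the supplementary list names *ldlr*, the lipoprotein receptor, fell by 0.67 (limma adjusted p = 0.024), and a dimmer probe of that name differed by −0.82 (0.072). Of 24 measured genes of sterol synthesis 1 fell and 0 rose, with a median of −0.02. Enzymes of the pathway spread widely, with *hmgcs1* at −0.91 (95% interval −1.69 to −0.13, adjusted p = 0.218) and *sqle* at 0.35 (−0.39 to 1.09, adjusted p = 0.688). The uncalled *mvk* differed by −0.86. Of the 24 genes 13 were lower at 28 DPA and 11 higher.

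The remaining falls with a symbol were of genes with various roles. The high mobility group gene *hmgxb4* ran from 5.81 through 6.38 to 6.83 at 24 DPA and from 5.01 through 5.33 to 5.79 at 28 DPA, without overlap, and fell by 0.96 (SE 0.14, limma adjusted p = 0.0023). The splicing-associated gene *pnn* fell by 1.04 (limma adjusted p = 0.033), *fam76b* by 0.90 (0.015), the elongation factor *ell2* by 0.84 (0.0061) and the adaptor *sh3kbp1*, which acts in receptor endocytosis, by 0.89 (0.043). Called with smaller falls were the acetyltransferase *ep300* at −0.79 (0.031), the nucleolar genes *tcof1* and *nolc1* at −0.72 and −0.67, the dimmer of 2 probes of the nucleolar *nop2* at −0.65 (the brighter at −0.18), and the phosphatase subunit *ppp2r5d* at −0.72. These 5 genes were chosen after its values were seen.

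The genes that rose did not form one family. The regulator *tsc22d3*, known in mammals as a glucocorticoid-induced gene, ran from 8.81 through 9.15 to 9.43 at 24 DPA and from 9.54 through 9.87 to 10.25 at 28 DPA. All 9 arrays of 28 DPA were above all 10 of 24 DPA, and it rose by 0.74 (SE 0.10, limma adjusted p = 0.002). The kinase gene *riok3* rose by 0.79 (0.0023), also without overlap. The kinase gene *nek3* rose by 1.00 (SE 0.14, limma adjusted p = 0.0023), from 6.22 ± 0.26 to 7.22 ± 0.38, with 8 of 9 arrays of 28 DPA above all of 24 DPA. The retinaldehyde reductase gene *dhrs3*, which limits retinoic acid, rose by 0.65 (0.004) and the cytoskeletal adaptor gene *pdlim7* by 0.62 (0.0045).

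Several risen genes encode secreted or surface proteins. The collagen VI chain gene *col6a1* ran from 10.25 through 11.13 to 11.75 and from 11.41 through 11.81 to 12.20, and rose by 0.70 (SE 0.16, limma adjusted p = 0.021). It was the 1 called gene of 42 in the interstitial matrix list, which had 0 falls and a median of 0.10, and its partner chain *col6a2* stood 0.55 higher (95% interval 0.22 to 0.87, adjusted p = 0.066). The lymphatic growth factor gene *vegfc* rose by 0.73 (limma adjusted p = 0.035), the Notch-related surface gene *dlk1* by 0.72 (0.023), the neurexin ligand gene *nxph1* by 0.78 (0.0079) and *mmrn1*, of platelets and endothelium, by 0.70 (0.039). Of 14 endothelial genes 0 were called and 12 were higher at 28 DPA, with a median of 0.09, with *pecam1* at 0.55 (95% interval 0.13 to 0.96, adjusted p = 0.155) and *cdh5* at 0.12. The mitophagy gene *bnip3*, a hypoxia target in mammals, rose by 0.60 (0.016) as the only call among 22 glycolysis and hypoxia genes, whose median was 0.01.

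The largest rise with a symbol, *pdgfrl*, rested on some arrays more than others. This gene of a secreted relative of the platelet-derived growth factor receptor ran from 4.60 through 4.98 to 5.79 at 24 DPA and from 5.20 through 6.33 to 8.05 at 28 DPA, a rise of 1.26 (SE 0.30, limma adjusted p = 0.029). Replicates 1 to 5 differed by 0.65, and the later-numbered set by 2.00. Without replicates 6 and 9 of 28 DPA, an alternative added after seeing the data, it was 0.97 with an adjusted p of 0.075.

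Cartilage and bone genes were not called. All 32 cartilage genes stayed below the threshold, with a median of 0.06 and 24 of 32 higher at 28 DPA. The main cartilage collagen *col2a1* stood at 10.64 ± 0.70 and 10.98 ± 0.44 (difference 0.35, 95% interval −0.19 to 0.88, adjusted p = 0.552), and *col9a1* at 10.17 ± 0.78 and 10.57 ± 0.88 (0.40, −0.34 to 1.14, 0.632). Both were thus well expressed at 24 DPA. The largest difference was that of the small proteoglycan gene *epyc*, 0.82 (−0.18 to 1.82, adjusted p = 0.424). The intervals allow rises of over 1.5-fold in each of these 3 genes. The aggrecan gene *acan* gave −0.30 in its brighter probe and 0.95 in its dimmer one, both uncalled, and the *sox9* probe was dim, at 3.95 and 4.02. Of 13 hypertrophic cartilage and bone genes 0 were called, and *bglap*, the bone matrix gene, was at 4.38 and 4.35 against 12.02 in the day 0 limb.

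**Figure D3:**
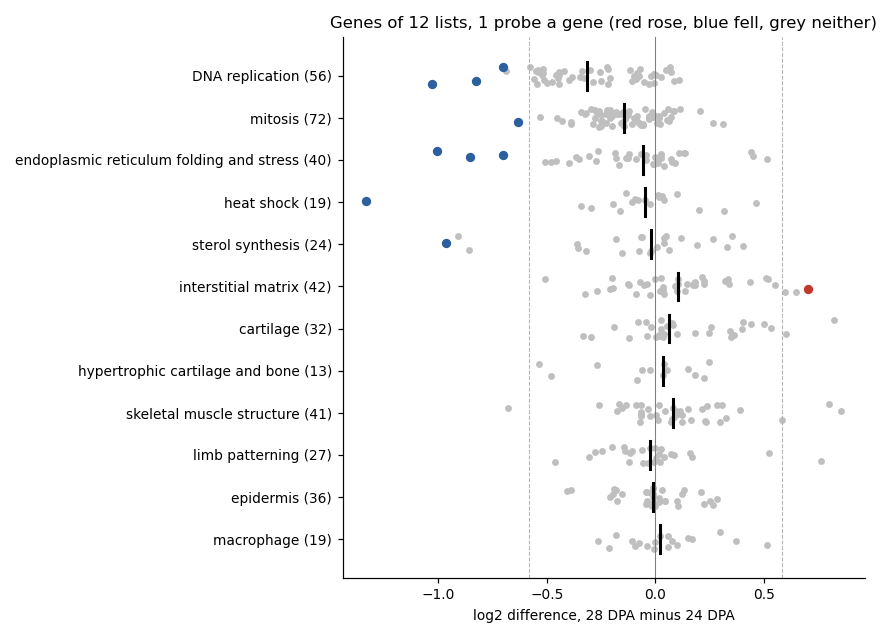
Log2 difference of 28 DPA minus 24 DPA for the genes of 12 lists, 1 point a gene with the number of genes in brackets, black bars at list medians and dashed lines at the fold threshold. The DNA replication list has the lowest median, at −0.31, and no cartilage, bone, muscle, patterning, epidermis or macrophage gene is coloured.

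Muscle genes gave no call over the groups but were raised in 2 arrays. Of 41 skeletal muscle genes 0 were called and the median was 0.08, and with the letter codes as a block 1, the tropomyosin gene *tpm1*, fell by 0.71 (limma adjusted p = 0.029). The muscle creatine kinase gene *ckm* lay between 4.46 and 4.98 in all 10 arrays of 24 DPA. At 28 DPA it stood at 8.26 and 8.07 in replicates 6 and 9 and at 5.05 or below in the other 7. The myosin light chain gene *myl1* showed the same arrays, at 7.57 and 7.27 against 4.23 or below in the others of 28 DPA. For 8 of the 41 genes, *ckm*, *des*, *myl1*, *myl3*, *neb*, *tnnc2*, *tnnt3* and *ttn*, both arrays exceeded the other 17 of the 2 time points, which was so for 1.66% of all probes. The 2 arrays were singled out after these values were seen, so the difference from that share is a description and no test. The list mean was 5.42 and 5.27 in these arrays and at most 5.00 in the other arrays of 28 DPA, against 11.57 at day 0. A single array of 26 DPA, replicate 3, held more, with *myl1* at 10.05 and *ckm* at 9.55, and in all arrays of 22 DPA *ckm* was at 4.86 or below. Raised muscle genes were also present earlier, at 20 DPA, where replicate 1 had *myl1* at 8.77 and *ckm* at 7.23. The highest list mean of any array was 6.11 at 20 DPA and 6.01 at 26 DPA. The regulators did not follow over the groups, with 0 of 16 called and *myog* at 4.23 ± 0.19 and 4.46 ± 0.16.

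**Figure D4:**
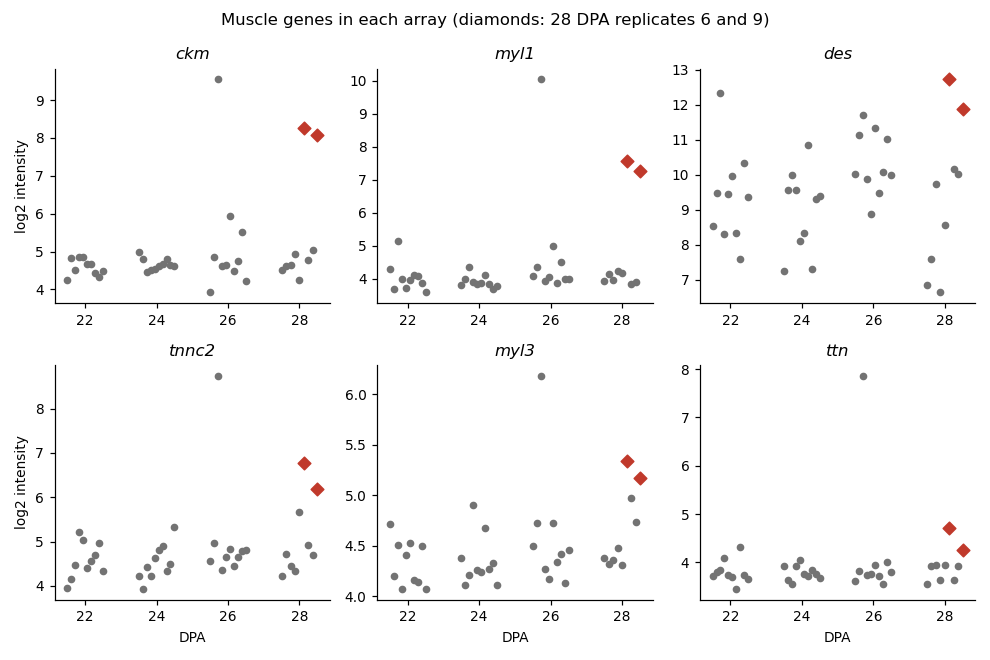
Log2 intensity of 6 muscle genes in every array of 22, 24, 26 and 28 DPA, with red diamonds for replicates 6 and 9 of 28 DPA. The diamonds lie above the other arrays of 24 and 28 DPA for each gene, and 1 array of 26 DPA lies higher for all but *des*.

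Without these 2 arrays 74 probes were called, 22 that rose and 52 that fell, and 57 of these were shared with the 113. The calls of *tk1*, *dck*, *dctpp1*, *nasp*, *hsp90aa1*, *hmgxb4*, *tsc22d3*, *riok3* and *nek3* were among those that remained. Those of *hspa5* (−0.72, adjusted p = 0.059), *hyou1* (−0.92, 0.07), *dnajb9* (−0.54, 0.09), *insig1* (−1.03, 0.079), *cdca2* (−0.59, 0.132) and *col6a1* (0.67, 0.062) did not, and the differences of *hyou1* and *insig1* were larger without the arrays. This fit has fewer samples. For *hspa5* the 2 arrays were also the lowest of 28 DPA, at 9.78 and 9.95. In the DNA replication list 15 genes were then lower at an adjusted p below 0.05, against 24 with all arrays. The part of these arrays in the results was otherwise not tested.

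Signals of limb outgrowth gave no call in the comparison of all arrays. The gene *fgf8*, a growth factor of the distal limb bud, ran from 4.67 through 5.60 to 7.66 at 24 DPA and from 4.07 through 4.43 to 6.34 at 28 DPA, a difference of −1.11 (95% interval −2.0 to −0.22, adjusted p = 0.181). Its level differed between the sets of replicates, and with the letter codes as a block in the fit it fell by 1.19 (limma adjusted p = 0.017). At 24 DPA replicates 1 to 5 lay between 5.44 and 7.66 and the others between 4.67 and 5.77. In the independent arrays of 22 and 26 DPA *fgf8* fell from 6.35 ± 0.89 to 4.55 ± 0.28 (SD, n = 10 each, limma adjusted p = 0.0012). Among 27 limb patterning genes 0 were called, with a median of −0.02. The retinoic acid hydroxylase gene *cyp26a1* was highest among them at 0.76 (95% interval 0.18 to 1.34, adjusted p = 0.159) and *sall4*, a zinc finger factor, lowest at −0.46 (−1.02 to 0.09), while *hoxa13* stood at −0.06 (−0.67 to 0.56). The 10 limb mesenchyme and blastema genes had 0 calls, a median of −0.13 and 7 genes lower, with *msx2* lowest at −0.48 (−1.01 to 0.04). That median hides opposite signs, 0.30 for the lower-numbered replicates (1 to 5) against −0.51 for the later-numbered ones. A fall shared by both sets is therefore not shown for these genes. The lists of bone morphogenetic protein and TGF-beta, WNT, and Hedgehog and Notch signaling had 0 calls in 41, 38 and 19 genes, with medians of 0.04, 0.03 and 0.04. With the letter codes as a block 2 genes of the first list rose, *bmper*, a regulator of bone morphogenetic proteins, by 0.58 and their inhibitor *sostdc1* by 0.60 (limma adjusted p = 0.015 and 0.046).

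The same block added other calls. With it 184 probes were called, 50 up and 134 down, 109 of them shared with the 113, so that 75 were added and 4 lost. Among the added calls the folate enzyme gene *mthfd2* rose by 1.16 (limma adjusted p = 0.02; 0.051 without the block) and the basement membrane collagen *col4a1* by 0.83 (0.044; 0.06). No probe passed a test of a different change in replicates 1 to 5 and in replicates 6 to 10 (limma interaction, 0 of 20,035, smallest adjusted p = 0.128).

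Marker genes of other cell types gave no call when read from their brightest probes, which does not show that their levels were steady. The 36 epidermis genes had 0 calls, a median of −0.01 and list means between 8.93 and 9.17 at 24 DPA and between 8.86 and 9.22 at 28 DPA. The desmosome gene *dsp* was at 13.78 ± 0.10 and 13.82 ± 0.16 in its brightest probe and *epcam* at 12.79 ± 0.11 and 12.91 ± 0.09. Macrophage genes, 19 in number, gave 0 calls and a median of 0.02, with list means of 7.56 to 8.35 and 7.79 to 8.26. Erythrocyte, Schwann cell, pigment, fat, osteoclast, neutrophil and lymphocyte lists held 13, 16, 10, 10, 10, 3 and 4 genes with 0 calls and medians between −0.07 and 0.10. The mesenchyme marker *prrx1* was dim on this array, at 4.11 ± 0.22 and 4.26 ± 0.18. Ribosomal protein genes, 57 in all, had a median of 0.01.

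The mean level at 26 DPA was intermediate for most called probes. Of the 81 probes that fell, 79 had a mean at 26 DPA between those of 24 and 28 DPA, as had 29 of the 32 that rose. From 24 to 26 DPA 8 probes were called, and from 26 to 28 DPA 0 were called by limma, with 1,891 at an unadjusted p below 0.05. These steps share arrays with the comparison of 24 and 28 DPA. The probes were chosen for a difference between its ends, which by itself favours a mean in between. Whether the changes were gradual was not tested. The fallen probes were also set beside the uninjured limb. At 24 DPA the mean was above that of day 0 for 76 of the 81. At 28 DPA it was above for 54 and below for 27. Choosing probes that fell favours a high level at 24 DPA, and the share over all probes is not given here.

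The arrays of 22 and 26 DPA, which span the same number of days and share no array with this comparison, showed 2 kinds of course. Between them 94 probes rose (0.469%) and 141 fell (0.704%). Of the 32 probes that rose from 24 to 28 DPA 6 also rose from 22 to 26 DPA and 1 fell, and of the 81 that fell 8 also fell and 6 rose. A steady decline was seen for *ep300*, with means of 6.02, 5.76, 5.21 and 4.98 at 22, 24, 26 and 28 DPA, and for *sh3kbp1*, *tcof1* and 1 dim probe of *lamb1*, a laminin chain, each of which also fell from 22 to 26 DPA. The brightest *lamb1* probe differed by −0.19 from 24 to 28 DPA. A peak at 24 to 26 DPA was seen for *tk1*, with means of 6.59, 7.68, 7.30 and 6.65, for *dctpp1*, with 7.90, 8.73, 8.63 and 7.91, and for *insig1*, with 8.59, 10.13, 10.25 and 9.16. These 3 genes rose from 22 to 26 DPA, by 0.71, 0.73 and 1.65 (limma adjusted p = 0.016, 4.69e-04 and 0.0033).

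The lists followed both courses. Of the 56 DNA replication genes 46 were higher at 26 than at 22 DPA and 49 lower at 28 than at 24 DPA, with medians of 0.10 and −0.31. Of the 72 mitosis genes 62 were higher at 26 than at 22 DPA and 57 lower at 28 than at 24 DPA. Of the 24 sterol genes 10 rose from 22 to 26 DPA, while 1 fell from 24 to 28 DPA. Matrix and cartilage genes were mostly higher at the later time in both comparisons, with cartilage medians of 0.12 and 0.06. Of all 20,035 probes 51.9% were higher at 26 than at 22 DPA, and 10,608 were higher at 28 than at 24 DPA. The cartilage rise from 24 to 28 DPA was not shared by both sets of replicates. The opposite order was seen for *tsc22d3*, with means of 9.91, 9.14, 9.70 and 9.88, and *riok3* and *thap5* were also lowest at 24 DPA among these 4 times.

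**Figure D5:**
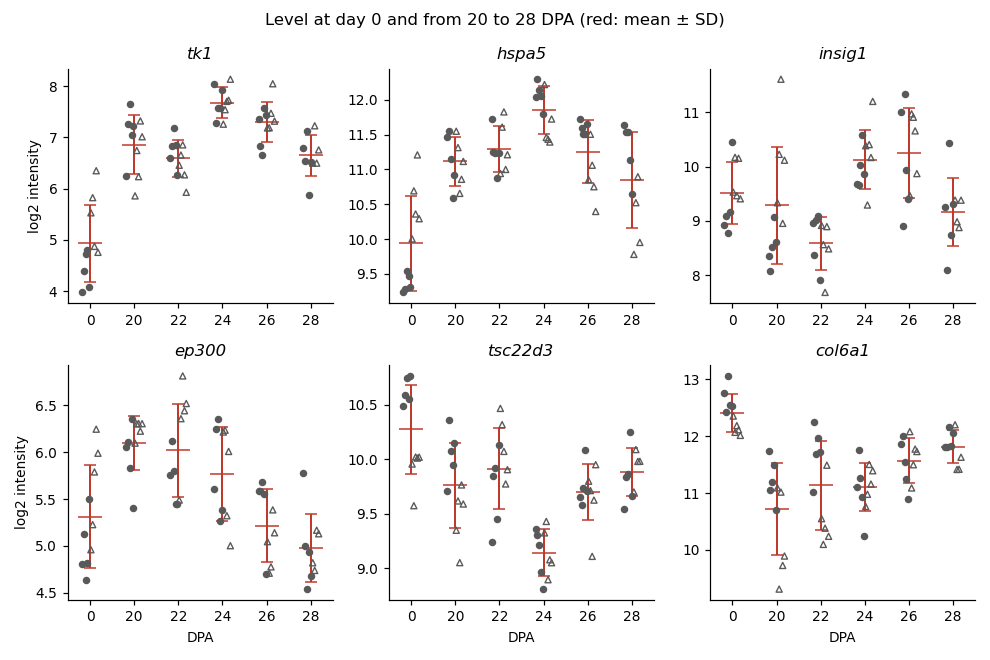
Log2 intensity in every array at day 0 and at 20, 22, 24, 26 and 28 DPA, with mean ± SD in red, filled points for replicates 1 to 5 and open triangles for replicates 6 to 10 (n = 10, and 9 at 28 DPA). *tk1* and *hspa5* are highest at 24 DPA, *tsc22d3* is lowest there, and *ep300* declines from 22 to 28 DPA.

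Groups that did not overlap were rare. Over all probes 36 (0.18%) had every array of 28 DPA above or below every array of 24 DPA, 11 above and 25 below. Of the 113 called probes 11 did so, 4 that rose and 7 that fell. In the set of replicates 1 to 5 and in that of 6 to 10 all 113 differed in the same direction as in the whole. The direction in a set is no independent support, because each set is part of the comparison. Of the 113 calls 58 were made in all 19 fits that each left out 1 array. Among the genes named above that lost their call in most of these fits, *insig1* and the brighter called *cdh1* probe were called in 3, *cdca2* in 4, *sh3kbp1* (brighter called probe) in 4, *hyou1* and *lamb1* in 5, *mmrn1* in 7, *sass6*, *nolc1* and the brighter called *baz1b* probe in 8, and *pnn* and the dimmer *pcna* probe in 9.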

How the data were processed

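Log2 intensities were deposited by the authors for every array, after robust multi-array averaging (RMA) in Affymetrix Expression Console (version not given in the sources used here). RMA subtracts background, sets all arrays to 1 distribution and summarises the oligonucleotides of a probe set, here called a probe, so a shift shared by most probes would be removed and low intensities are compressed. Of 20,080 probes 45 manufacturer controls were left out and 20,035 were tested, with values from 2.59 to 15.19. No sample columns were left unmatched. Platform annotation gave 1 symbol to 10,951 probes, for 8,639 symbols. The other probes are unnamed unless the supplementary probe list of the study names them, which is stated. Accuracy is limited by the number of arrays, 10 and 9.

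Differences between groups were tested by limma (version 3.58.1, lmFit and eBayes, run under R 4.3.3), with p-values adjusted by the Benjamini-Hochberg method over all probes tested, at an adjusted p of 0.05 and a fold of 1.5. The other comparisons (22 with 26, 24 with 26 and 26 with 28 DPA) were fitted the same way. Gene lists were read from the brightest probe of each gene. Named genes were the 15 largest rises and 15 largest falls with the same sign in replicates 1 to 5 and 6 to 10, up to 4 called members in each direction of each list or its largest difference where none was called, genes defining a pathway or cell type, and their other probes. Members and lists were chosen with earlier results of these data known. In simulated data of 20,035 probes with 24 and 28 DPA group sizes, 88% of probes changed by 0.8 and 94% of those changed by 1 were recovered, with 9 false calls among 19,835. No change below 0.8 was simulated, and the shuffled arrays did not keep the letter codes. Alternatives were other tests and thresholds, centring, dim probes, blocks, subsets and leaving out arrays.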

Additional observations from a re-analysis of the deposited data

Results flagged for a closer look

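For named genes, an array was singled out where it lay far from the rest of its group relative to the group's range (Dixon's criterion), which chance does in about 1 group in 20. Among 284 groups, 142 probes at 2 time points, 18 values stood out, 8 at 24 DPA and 10 at 28 DPA. That count is not far above what the chance rate gives, and 1 array could stand out for several probes. All values are log2 intensities.

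Several concern genes that fell. At 28 DPA *hsp90aa1* was highest in replicate 7, at 7.19, *cdca2* in replicate 1, at 5.21, and 1 called *znf318* probe in replicate 1, at 7.27, while the dimmer *pcna* probe was lowest in replicate 4, at 9.93. At 24 DPA the brighter *pcna* probe was lowest in replicate 6, at 12.3, *tcof1* was lowest in replicate 8, at 6.22, and the dimmer *dck* probe was highest in replicate 9, at 6.01.

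Replicate 7 of 24 DPA was the highest for 4 genes of blood, bone resorption and fat. The osteoclast protease gene *ctsk* stood at 10.3 and *acp5*, the osteoclast acid phosphatase, at 7.86. The heme synthesis gene *alas2* was at 7.75 and *adipoq*, of fat cells, at 6.50. At 28 DPA *adipoq* was highest in replicate 2, at 6.35. The lipase gene *pnpla2* was highest in replicate 9 of 24 DPA, at 8.04.

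Other genes stood out at 28 DPA without being called. In replicate 3 the joint gene *gdf5* was at 5.30 and *hmgcs1* at 8.55. In replicate 6, which also held raised muscle genes, *cyp26a1* was at 7.03. The interferon-induced gene *usp18* was at 6.40 in replicate 7, and the WNT inhibitor gene *dkk2* was lowest in replicate 8, at 6.74.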

How the results depend on the processing

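No called probe changed sign in any alternative. The number of calls, 113 (32 rises and 81 falls), depended on the threshold and the samples. It was 505 (163 and 342) with no fold threshold, 11 (5 and 6) at 2-fold, and 63 (19 and 44) with the methods' t-test at p of 0.001 or after Benjamini-Hochberg adjustment. With the letter codes as a block it was 184 (50 and 134), among replicates 1 to 5 it was 21 (6 and 15), among the later-numbered replicates 32 (9 and 23), and without replicates 6 and 9 of 28 DPA, chosen after seeing the data, 74 (22 and 52). Rises alone numbered 49 in 1 fit of all arrays and 52 with the methods' t-test at p of 0.01. Leaving out 1 array at a time gave 65 to 151 calls, 17 to 49 rises and 48 to 102 falls. Replicate 4 of 28 DPA left 17 rises and 48 falls, replicate 1 of 28 DPA gave 49 rises and replicate 3 of 24 DPA left 52 falls. Of the 113 calls 58 were made in all 19 such fits.

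Called list members numbered 11, and 49 with no fold threshold, 3 at 2-fold, 6 with the stricter t-test or its adjustment, 20 with the letter block, 17 with the replicate block, 2 and 1 in the sets of replicates, and 7 to 15 with an array left out, 7 without replicate 4 of 24 or of 28 DPA. The 24 DNA replication genes lower at the adjusted p were 14 in the fit of all arrays, 0 and 1 in the sets of replicates, 15 without the 2 arrays and 22 to 26 with an array left out. Fewer samples enter the sets. Probes changed the same way from 22 to 26 DPA numbered 14, and 27 and 3 with no fold and a 2-fold threshold. Of the settings of single named probes, 2325 kept their side of the threshold, 572 lost it and 22 passed it. Samples share only a replicate number. Same-numbered samples correlated at −0.07 to 0.22 and only replicate 6 correlated best with its own number. The replicate block gave 123 calls, 35 rises and 88 falls, 79 of them shared. The number of arrays and low intensity limit dim probes.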
